A study of Mus musculus with 14 samples.

Results

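The cytosolic heat shock chaperone genes described here, 10 in number, were followed in the brain of mice lacking 2310061I04Rik at postnatal day 23 (P23). They were the 3 HSP110 genes Hsph1, Hspa4 and Hspa4l, the constitutive HSP70 gene Hspa8, the J-domain genes Dnaja1 and Dnajb1, the HSP90 genes Hsp90aa1 and Hsp90ab1, and the HSP90 cochaperones Stip1 and Chordc1. The 10 genes were chosen by name out of 56748 genes in the count table, with earlier results of these data known, and all 10 passed the filter on low counts, which left 16882 genes. Brain RNA was sequenced in 14 libraries, 7 from mice homozygous for the Rik null allele and 7 from wild-type (WT) littermates. The Rik null allele is a spontaneous small deletion in the first intron of 2310061I04Rik (Rik), a gene of undescribed function, that came up in an embryonic stem cell clone during the making of floxed Traf7 mice and was later separated from the floxed allele by breeding. All mice were labelled C57BL6/J and day 23, and 1 sagittal side of each brain was used. There were 4 females and 3 males among the Rik null libraries and 3 females and 4 males among the WT libraries by their labels. Rik null mice at this age are runted and ataxic and near the end of their life, so an effect of the gene and an effect of the illness cannot be told apart in these samples.

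Cytosolic chaperones work as a relay. HSP70 proteins bind unfolded stretches of other proteins in a cycle driven by ATP, which J-domain proteins start and nucleotide exchange factors such as the HSP110 proteins end, and some of their clients are then handed to HSP90 through the adaptor encoded by Stip1. In neurons the constitutive HSP70 also strips clathrin from synaptic vesicles. Many of these genes are targets of heat shock factor 1 (HSF1), which binds heat shock elements, runs of the motif GAA and its reverse complement TTC that alternate at fixed spacing.

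The library facts that bear on the chaperones are few. Each library held between 14.7 and 17.9 M counts in total. Rik itself had 18 to 56 counts in Rik null libraries, against 483 to 687 in WT libraries, so that 14 of 14 libraries matched their genotype label. Rik null replicate 4, labelled male, had Xist reads and no reads of Y-linked genes, and results by sex are therefore also given without it. Rik null replicate 1 stood apart from the other Rik null libraries on the first principal component (-54.5, against -23.8 to -22.0), and WT replicate 4 held pituitary transcripts (380 CPM, against at most 18.5 CPM in the other WT libraries). Across all tested genes 3027 were lower and 2783 higher in Rik null brain, and with scaling by library size alone the share of higher genes among those called moved to 63.8% from 47.9%. The sampled tissue had the neuron, astrocyte and oligodendrocyte markers that brain should hold.

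The promoters of Hsph1 and Chordc1 are shown because both hold a heat shock element triplet and the transcripts of both genes were lower in Rik null brain. Windows reached from 250 bases before to 50 bases after the annotated start (RefSeq, GRCm38.p6), and 7 of the 10 genes had at least 1 window. Hspa8, Hsp90aa1 and Hsp90ab1 had no window. A triplet was taken as GAANNTTCNNGAA or TTCNNGAANNTTC and a pair as GAANNTTC or TTCNNGAA. Each of these motifs is covered by its partner on the other strand or is its own reverse complement, and every triplet contains 2 overlapping pairs. Capitals mark the triplet matches, which lie at positions 36 to 48 for Hsph1 (chr5:149636287-149636586, minus strand) and at positions -4 to 18, as 3 overlapping matches, for Chordc1 (chr9:18292017-18292316, plus strand), with the start base as 0.
Hsph1: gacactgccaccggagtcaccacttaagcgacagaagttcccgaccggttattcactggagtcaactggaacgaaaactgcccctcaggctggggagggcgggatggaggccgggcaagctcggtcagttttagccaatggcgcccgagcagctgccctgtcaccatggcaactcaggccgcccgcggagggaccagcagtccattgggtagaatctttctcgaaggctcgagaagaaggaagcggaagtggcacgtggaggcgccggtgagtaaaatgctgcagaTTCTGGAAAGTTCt
Chordc1: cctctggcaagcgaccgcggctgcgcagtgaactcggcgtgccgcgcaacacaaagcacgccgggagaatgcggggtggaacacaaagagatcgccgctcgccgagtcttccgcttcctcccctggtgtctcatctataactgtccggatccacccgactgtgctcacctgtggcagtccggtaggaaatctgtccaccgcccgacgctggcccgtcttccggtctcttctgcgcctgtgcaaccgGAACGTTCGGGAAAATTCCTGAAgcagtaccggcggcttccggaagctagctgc

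Shorter stretches are shown for Dnaja1, whose transcript level missed the threshold between genotypes, and for Hspa1a, a stress-inducible HSP70 gene outside the 10. Each holds a pair (capitals) and no triplet. The stretches lie at chr4:40722328-40722367, plus strand, for Dnaja1 and at chr17:34972237-34972276, minus strand, for Hspa1a.
Dnaja1: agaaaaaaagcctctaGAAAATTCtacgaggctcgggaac
Hspa1a: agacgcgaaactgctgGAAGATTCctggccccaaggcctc

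Triplets were rare among promoters. They occurred in 0.603% of the 32851 annotated windows and pairs in 15.1%, and by gene in 0.662% and 17.0% of 27025 genes. Of the 7 chaperone genes with a window, 3 held a pair (Hsph1, Dnaja1 and Chordc1) and 2 held a triplet, while Hspa4, Hspa4l, Stip1 and Dnajb1 held neither. Of the genes with neither, Hspa4, Hspa4l and Stip1 fell in Rik null brain (log2 fold change -0.54, -0.23 and -0.37), and Dnajb1 missed the threshold. Among 65 other cytosolic chaperone genes with a window, 20 held a pair and 1, Dnajb6, a triplet. Dnajb6 rose in Rik null brain (log2 fold change 0.22). A match here describes the letters of the window and is not evidence of a bound site. A missing match covers only these exact letters in this window and is not evidence that a gene lacks heat shock elements. Whether matches go with transcript levels was not tested.

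**Figure D1:**
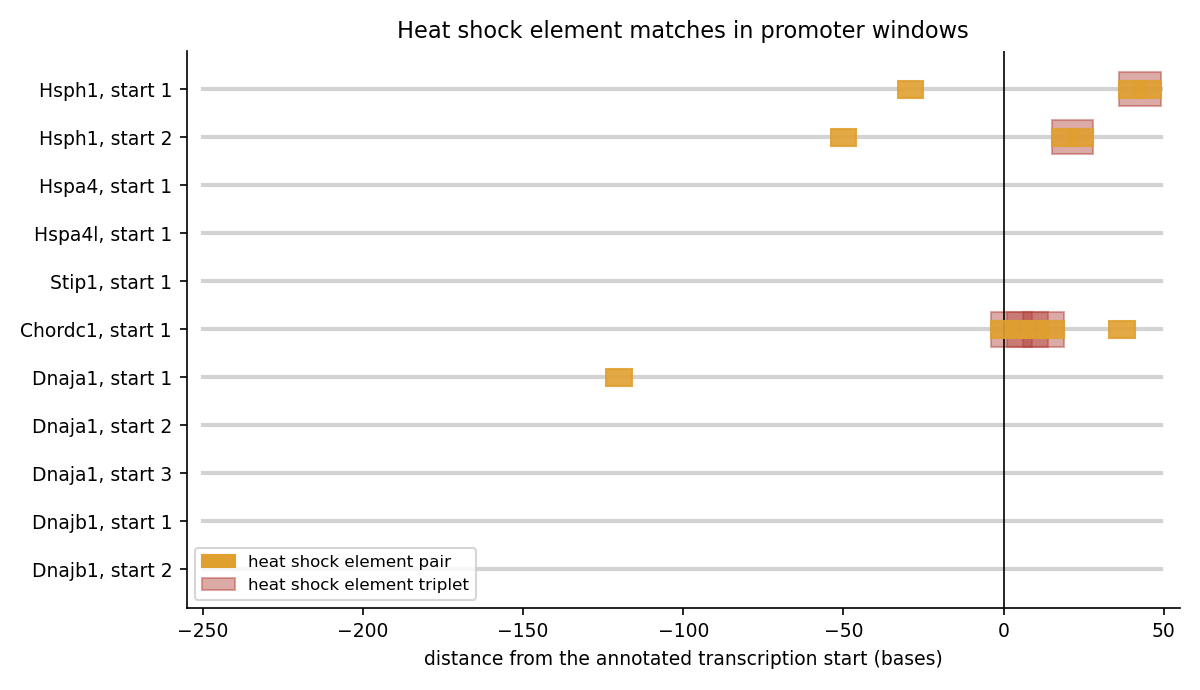
Heat shock element pairs (yellow) and triplets (red) in the promoter windows of the 7 chaperone genes that had one, by distance in bases from the annotated transcription start (0); each row is an annotated start. Triplets lie within 50 bases of the start in both Hsph1 windows and in the Chordc1 window, and 3 of the 7 genes hold a pair.

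As a group, the chaperone transcripts were lower in Rik null brain. With an adjusted p threshold of 0.05 in edgeR's quasi-likelihood test, 7 of the 10 genes fell, 0 rose and 3 did not pass, where 17.9% of all tested genes fell and 16.5% rose, or 34.4% in either direction. Of the 10, 6 had every Rik null library below every WT library, a pattern that 7.03% of all tested genes showed, and 1 (Hsph1) fell at least 2-fold, as 1.62% of all tested genes did. The median log2 fold change of Rik null over WT was -0.22 for the 10 genes and -0.0005 for all tested genes. The 10 genes were chosen with earlier results of these data known, so these comparisons describe them and do not test the group. Together the 10 genes took 0.521% to 0.551% of all counts in Rik null libraries, against 0.579% to 0.608% in WT libraries, with no overlap. In bulk tissue, fewer cells of a type and less RNA per cell cannot be told apart.

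**Figure D2:**
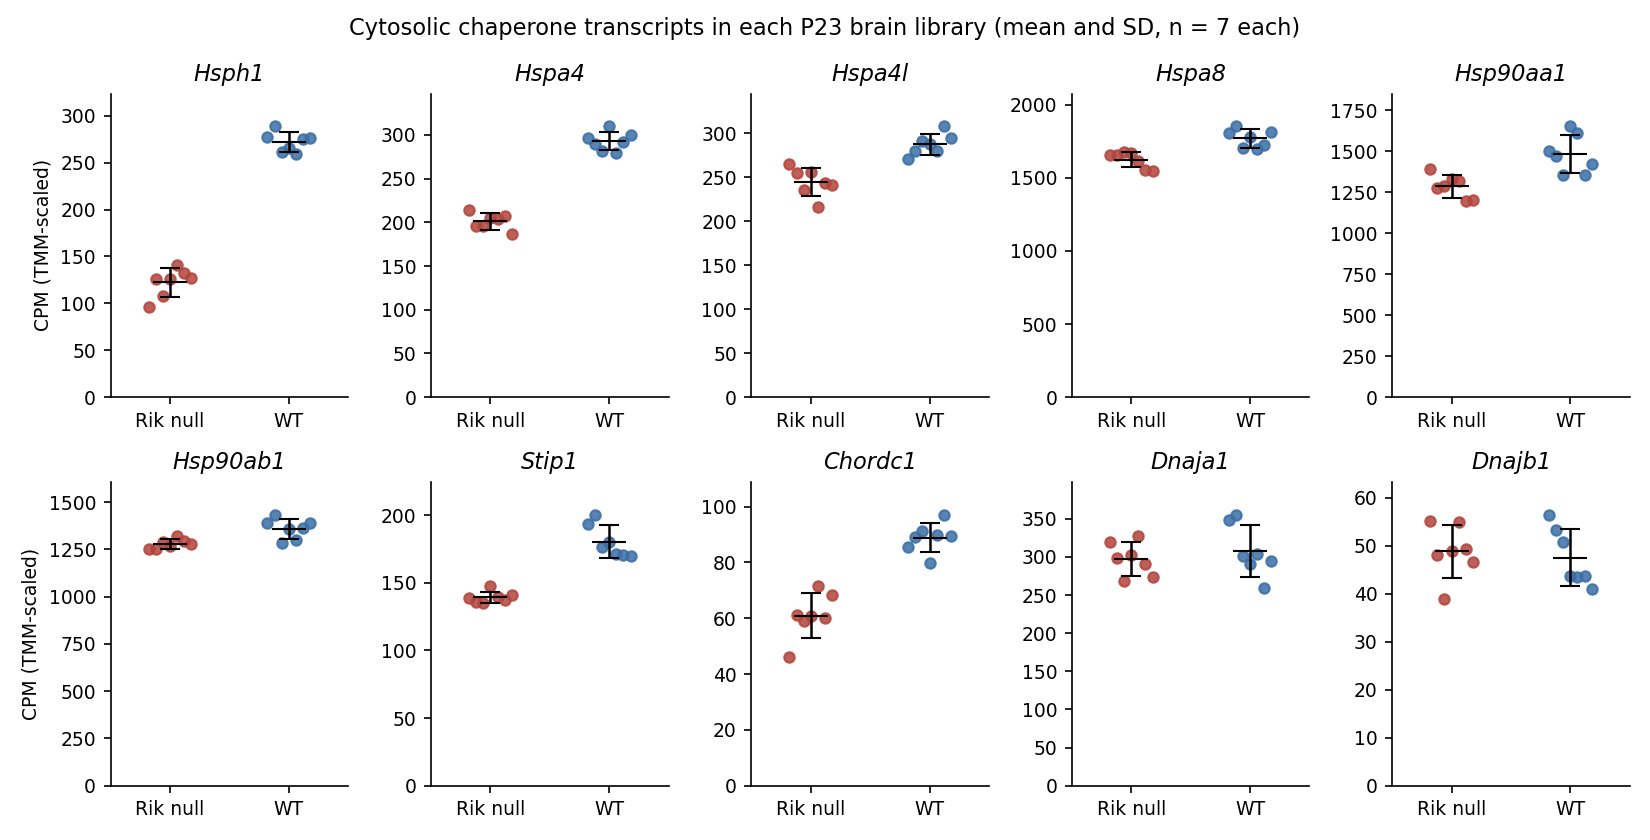
Level of each chaperone transcript in CPM (counts per M of scaled library size) in the 7 Rik null libraries (left, red) and the 7 WT libraries (right, blue); points are libraries, and bars give the mean and SD. Rik null points lie wholly below WT points for Hsph1, Hspa4, Hspa4l, Hspa8, Stip1 and Chordc1 and mix with them for the other 4 genes.

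**Figure D3:**
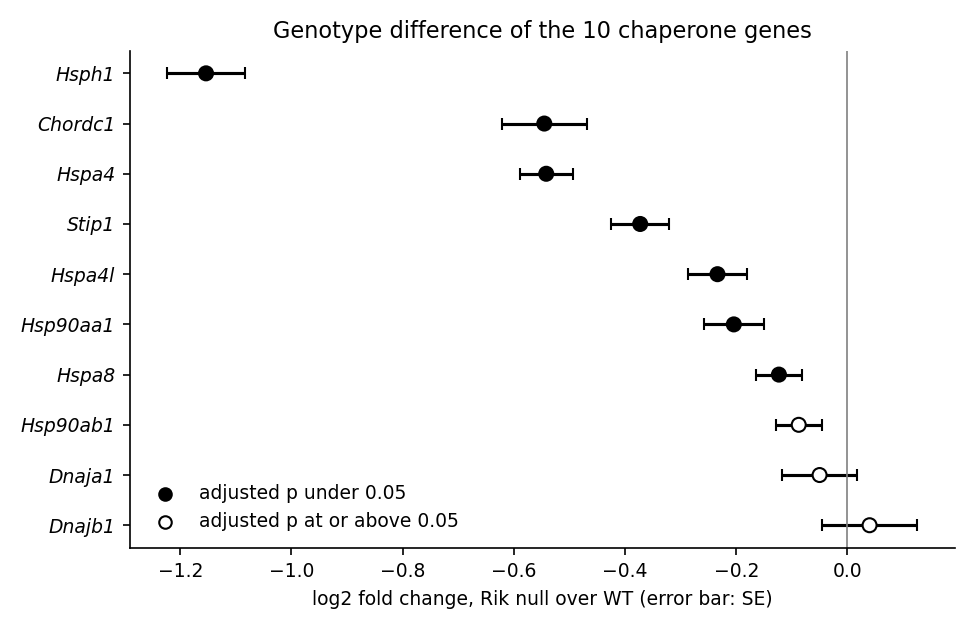
Log2 fold change of Rik null over WT for each of the 10 genes with its standard error, ordered by size; filled points have an adjusted p under 0.05 and open points do not. Values run from -1.15 for Hsph1 to 0.04 for Dnajb1.

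The HSP110 genes fell together but to unequal extents. Hsph1 (ENSMUSG00000029657, chr5:149614287-149636376, minus strand) encodes the stress-inducible HSP110, an exchange factor for HSP70 that also helps to dissolve aggregates. Its level ranged from 96.0 to 141 CPM with a median of 126 CPM in Rik null brain, against 259 to 289 CPM with a median of 275 CPM in WT brain. The highest Rik null library thus lay far under the lowest WT library. Hsph1 averaged 122 ± 15.2 CPM in Rik null and 272 ± 10.5 CPM in WT (SD, n = 7 each), a 2.22-fold fall (log2 fold change -1.15, SE 0.07, edgeR adjusted p = 3.44e-10), and it ranked 6 by p among all tested genes. Hsph1 was also more variable in Rik null brain, with a coefficient of variation of 12.4%, against 3.85% in WT brain. The lowest Rik null values came from replicate 1 (96.0 CPM) and replicate 3 (108 CPM), and without replicate 1 the log2 fold change was -1.10.

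Hspa4 (ENSMUSG00000020361, chr11:53259814-53300457, minus strand), a constitutive HSP110 family member, had 186 to 214 CPM with a median of 204 CPM in Rik null brain, against 280 to 310 CPM with a median of 292 CPM in WT brain. All 7 Rik null libraries lay below the WT range. The log2 fold change was -0.54 (SE 0.05, edgeR adjusted p = 4.27e-08), which left 68.7% of the WT mean. Hspa4l (ENSMUSG00000025757, chr3:40744495-40796103, plus strand), its close relative, had 216 to 265 CPM with a median of 243 CPM in Rik null brain, against 271 to 308 CPM with a median of 288 CPM in WT brain. The groups were again apart, though by a small gap. Hspa4l fell by 0.23 on the log2 scale (SE 0.05, edgeR adjusted p = 0.00161), a call that was lost in females alone (adjusted p = 0.113), where fewer libraries entered.

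Hspa8 (ENSMUSG00000015656, chr9:40800984-40810087, plus strand), the constitutive HSP70 that carries out most folding and clathrin uncoating in unstressed cells, changed little. It had 1545 to 1673 CPM with a median of 1654 CPM in Rik null brain, against 1693 to 1853 CPM with a median of 1781 CPM in WT brain. These ranges did not overlap, yet the gap between them was narrow. Hspa8 averaged 1623 ± 53.3 CPM in Rik null and 1768 ± 61.7 CPM in WT (SD, n = 7 each), with a log2 fold change of -0.12 (SE 0.04, edgeR adjusted p = 0.0273). The call was lost in 10 of 28 alternatives, among them scaling by library size alone (-0.05, adjusted p = 0.333) and leaving out Rik null replicate 6 (-0.11, adjusted p = 0.0741), Rik null replicate 7 (-0.11, adjusted p = 0.0653), WT replicate 2 (-0.11, adjusted p = 0.0584) or WT replicate 7 (-0.11, adjusted p = 0.0613), and adjusted p over all alternatives ranged from 0.0123 to 0.404. The snoRNA genes Snord14c, Snord14d and Snord14e lie inside Hspa8 on the same strand.

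The J-domain genes showed no difference past the threshold. Dnaja1 (ENSMUSG00000028410, chr4:40722150-40737149, plus strand), which delivers clients to HSP70, had 268 to 327 CPM with a median of 299 CPM in Rik null brain, against 259 to 356 CPM with a median of 301 CPM in WT brain. Its log2 fold change was -0.05 (95% interval -0.20 to 0.10, edgeR adjusted p = 0.600), and it turned to 0.02 with scaling by library size alone. The 3′ neighbour Smu1, on the opposite strand, overlaps Dnaja1 by 608 bases, and whether counting used strand is not given in the sources used here. Smu1 itself had a log2 fold change of 0.28 (edgeR adjusted p = 0.0134). Dnajb1 (ENSMUSG00000005483, chr8:83608193-83612653, plus strand), the main stress-inducible J-domain protein of the cytosol, had 38.8 to 55.1 CPM with a median of 48.96 CPM in Rik null brain, against 41.1 to 56.5 CPM with a median of 43.8 CPM in WT brain. The ranges of the groups overlapped. Its log2 fold change was 0.04 (95% interval -0.15 to 0.23, edgeR adjusted p = 0.753).

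Of the HSP90 genes 1 fell and 1 missed the threshold. Hsp90aa1 (ENSMUSG00000021270, chr12:110690605-110702728, minus strand) encodes the inducible cytosolic HSP90 and had 1196 to 1391 CPM with a median of 1291 CPM in Rik null brain, against 1353 to 1655 CPM with a median of 1471 CPM in WT brain. Of the 7 Rik null libraries 6 lay below the lowest WT library, and the exception was replicate 1. The log2 fold change was -0.20 (SE 0.05, edgeR adjusted p = 0.00593). Hsp90ab1 (ENSMUSG00000023944, chr17:45567775-45573271, minus strand), the constitutive form, had 1250 to 1321 CPM with a median of 1277 CPM in Rik null brain, against 1281 to 1434 CPM with a median of 1361 CPM in WT brain. Its groups overlapped, with 4 Rik null libraries below the WT range. Its log2 fold change of -0.09 (95% interval -0.18 to 0.003) missed the threshold (edgeR adjusted p = 0.109, unadjusted p = 0.0477). Hsp90ab1 lies on the chromosome of Rik, 9.67 Mb away.

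Both cochaperones fell. Stip1 (ENSMUSG00000024966, chr19:7020702-7039967, minus strand) encodes the adaptor that holds HSP70 and HSP90 together during client transfer and had 135 to 148 CPM with a median of 139 CPM in Rik null brain, against 170 to 200.5 CPM with a median of 176 CPM in WT brain. All Rik null libraries lay below the WT range. The Rik null libraries were also close to each other (coefficient of variation 2.99%, against 6.70% in WT), and the log2 fold change was -0.37 (SE 0.05, edgeR adjusted p = 1.25e-05). Chordc1 (ENSMUSG00000001774, chr9:18292125-18317442, plus strand), which encodes an HSP90-binding cochaperone with zinc-binding CHORD domains, had 45.9 to 71.5 CPM with a median of 60.7 CPM in Rik null brain, against 79.7 to 97.1 CPM with a median of 89.5 CPM in WT brain. No Rik null library reached the WT range, and the lowest value was again that of replicate 1. The log2 fold change of Chordc1 was -0.55 (SE 0.08, edgeR adjusted p = 1.48e-05), and it was -0.48 without replicate 1. The processed pseudogene Gm19178 overlaps Chordc1 on the opposite strand.

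The balance among the chaperones also differed, on the scale of FPKM (fragments scaled by gene length and library depth). This scale allows levels of different genes to be compared as far as the gene lengths used are right. The lengths were the deposited ones, such as 2999 bases for Hsp90ab1 and 4301 bases for Hspa8. The order and the shares below depend on these lengths. In CPM the WT mean of Hspa8 (1768) was above that of Hsp90ab1 (1359). In WT brain Hsp90ab1 had the highest level (448 ± 16.9 FPKM), followed by Hspa8 (406 ± 13.8) and Hsp90aa1 (373 ± 30.2), and neighbours in this order overlapped between libraries. In Rik null brain the order of these 3 was the same, at 423 ± 8.32, 374 ± 12.01 and 325 ± 17.1 FPKM (SD, n = 7 each), without overlap. Stip1 and Hspa4 came next by mean in both genotypes. In Rik null brain, though, Hspa4 (33.4 to 38.4 FPKM) overlapped Dnaja1 (30.9 to 37.5 FPKM). Hsph1 was the sixth of the 10 in WT brain, overlapping Dnaja1, at 37.0 ± 1.36 FPKM, and the eighth in Rik null brain, at 16.7 ± 2.09 FPKM (SD, n = 7 each). This place in the Rik null order holds for means only, since Hsph1 (13.1 to 19.2 FPKM) overlapped both Hspa4l (18.6 to 22.8 FPKM) and Dnajb1 (12.02 to 17.0 FPKM) there. Dnajb1 and Chordc1 were lowest in both genotypes.

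Within each library the HSP110 transcripts took a smaller share of the HSP70 and HSP110 pool in Rik null brain. Hsph1, Hspa4 and Hspa4l summed to 15.4% to 17.5% of the FPKM of HSP110 genes plus Hspa8 in Rik null libraries, against 21.3% to 22.7% in WT libraries, with no overlap. Hsph1 made up 17.6% to 25.8% of the HSP110 sum in Rik null libraries, against 31.0% to 34.2% in WT libraries, again with no overlap. The ratio of Hsp90aa1 to Hsp90ab1 was 0.706 to 0.848 in Rik null libraries, against 0.761 to 0.945 in WT libraries, and these ranges overlapped. These ratios need no scaling between libraries, but they restate the differences given above.

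Females and males were compared next. In females alone the log2 fold change of Rik null over WT was -1.21 for Hsph1, -0.56 for Hspa4, -0.40 for Stip1 and -0.55 for Chordc1. In males alone the values were -1.07, -0.53, -0.35 and -0.51 in the same order of genes, and each of these 8 values passed edgeR's adjusted threshold. In males without Rik null replicate 4, a setting added after seeing the data, the values were -1.04, -0.53, -0.37 and -0.46 and passed too, while Hspa4l missed the threshold (-0.31, edgeR adjusted p = 0.065). The genotype by sex interaction passed that threshold for 0 of the 10 genes and 0% of all tested genes, and an unadjusted p under 0.05 was seen for 1 of the 10 and for 5.83% of all tested genes. The 1 gene was Hsp90aa1, at -0.33 in females and -0.10 in males (edgeR adjusted p = 0.832 for the interaction), and 0 of the 10 had an unadjusted p under 0.05 without Rik null replicate 4. The call for Hsp90aa1 was lost in males alone (edgeR adjusted p = 0.327).

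Inside each genotype the chaperones did not move as a block. After each genotype was centred on its mean, Pearson's r of log2 CPM over 14 libraries had a median of 0.15 across the 45 pairs of the 10 genes and ran from -0.60 to 0.82, with 28 pairs positive. Points of such a comparison share library depth and scaling, so these values are a description. The J-domain genes Dnaja1 and Dnajb1 were the closest pair (r = 0.82), both in Rik null libraries (0.90) and in WT libraries (0.78). Hsph1 and Chordc1 came next (r = 0.79), with 0.88 in Rik null libraries and 0.12 in WT libraries, and the value over all libraries was 0.49 without Rik null replicate 1. Hspa4 and Chordc1, which fell by similar amounts between genotypes, ran against each other within them (r = -0.60), though the value was -0.40 without Rik null replicate 1 and -0.21 without WT replicate 4 as well.

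**Figure D4:**
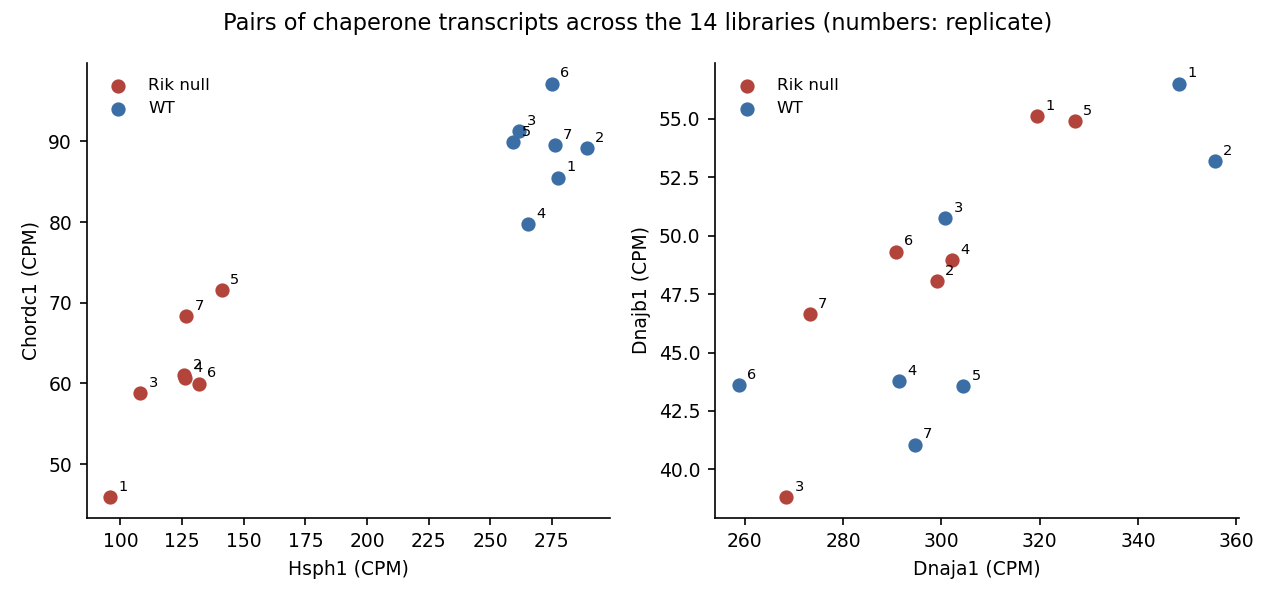
Level in CPM of Chordc1 against Hsph1 (left) and of Dnajb1 against Dnaja1 (right) in each library, Rik null in red and WT in blue, numbered by replicate. The Hsph1 and Chordc1 values separate the genotypes, with Rik null replicate 1 lowest in both, whereas the Dnaja1 and Dnajb1 values mix the genotypes and rise together in each.

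Among 10304 genes compared on the same centred scale, those most like the average of the 10 chaperones included Ssbp3 (r = 0.91), Gm12338 (0.90), Mrps36 (0.89), Ndufs6 (0.89), Fndc4 (0.89), Ndrg4 (0.89) and Camk1 (0.88). The genes most like Hsph1 were Isyna1 (r = 0.96), Dusp19 (0.95), Scn2b (0.93), Zswim9 (0.93) and Hk1 (0.92). Without Rik null replicate 1 these 5 values were between 0.81 and 0.91. Between genotypes Dusp19, Fndc4, Isyna1, Mrps36, Scn2b and Zswim9 fell, and the others named here missed the threshold. Dusp19, a protein phosphatase gene, had a log2 fold change of -1.20 and Scn2b, a sodium channel subunit gene, one of -0.74, whereas Hk1, the main brain hexokinase gene, had 0.08 and missed the threshold (edgeR adjusted p = 0.356).

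The other chaperone genes of the cytosol went in both directions, at rates near those of all genes. Of 75 such genes 72 passed the filter, of which 14 rose and 11 fell, where 16.5% of all tested genes rose and 17.9% fell. Their median log2 fold change was 0.09. Of them 5 had Rik null libraries all above and 5 all below the WT libraries, as did 5.38% and 7.03% of all tested genes. With scaling by library size alone 27 of the 72 rose, as did 3890 of all 16882 tested genes. Among the 7 other cytosolic HSP70 genes 1 rose and 1 fell. Hspa12a, a distant HSP70 relative expressed in brain, fell by 0.33 on the log2 scale (edgeR adjusted p = 0.000913), and Hspa14, a ribosome-associated HSP70, rose by 0.27 (edgeR adjusted p = 0.0232). The Hspa14 call was lost in 5 of 28 alternatives, among them that without WT replicate 4 (0.22, adjusted p = 0.0542). The stress-inducible HSP70 genes had low levels in both genotypes. Hspa1a had 2.93 to 4.28 CPM in Rik null brain, against 2.25 to 4.27 CPM in WT brain, and Hspa1b had 3.07 to 7.52 CPM in Rik null brain, against 2.46 to 4.80 CPM in WT brain.

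Neither inducible gene passed the threshold in the full comparison. The log2 fold change was 0.15 for Hspa1a (edgeR adjusted p = 0.545) and 0.51 for Hspa1b (edgeR adjusted p = 0.0569). Hspa1b passed when Rik null replicate 2 (0.60, adjusted p = 0.0272), Rik null replicate 3 (0.60, adjusted p = 0.0226) or WT replicate 2 (0.60, adjusted p = 0.0345) was left out and with scaling by library size alone (0.58, adjusted p = 0.0271). The copies are nearly identical, so the split of reads between them is uncertain, and they lie 0.921 and 0.933 Mb from Rik on the same chromosome. The protein-coding gene Gm20481 overlaps Hspa1a by 2225 bases on the opposite strand. Whether counting used strand is not given in the sources used here, and the effect on the Hspa1a counts was not tested.

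Of 15 other J-domain genes 3 rose (Dnajb4, Dnajb6 and Dnajc7) and 2 fell (Dnajb2 and Dnajc27). For this list and the next, the shares over all tested genes were 16.5% higher and 17.9% lower. Dnajb2, which encodes a J-domain protein abundant in neurons, fell by 0.59 on the log2 scale (edgeR adjusted p = 1.11e-05), while Dnajc7 rose by 0.32 and Dnajb4 by 0.33 (edgeR adjusted p = 0.000298 and 0.000729). Of 9 HSP70 exchange factors and cofactors 2 rose (Bag3 and Bag5) and 2 fell (Bag1 and Stub1). Stub1, the ubiquitin ligase that binds HSP70 and HSP90, was at -0.27 (edgeR adjusted p = 0.0218). The Stub1 call was lost in 6 of 28 alternatives, among them those without Rik null replicate 2 (-0.23, adjusted p = 0.0542) or WT replicate 2 (-0.22, adjusted p = 0.0551). Bag5 rose by 0.41 and Bag1 fell by 0.35 on that scale (edgeR adjusted p = 0.00117 and 0.000973). Dnajb6, Dnajc27 and Bag3 were named after their values were seen, to complete these counts.

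Among 21 other HSP90 cochaperone genes 2 rose and 5 fell. Fkbp5, an immunophilin gene induced by glucocorticoids, rose by 1.36 on the log2 scale (105 ± 20.7 CPM in Rik null and 40.9 ± 13.7 CPM in WT, SD, n = 7 each, edgeR adjusted p = 4.22e-06). Fnip1 rose by 0.40 (edgeR adjusted p = 1.56e-05), and Ppid, another immunophilin gene, fell by 0.45 (edgeR adjusted p = 1.15e-05). Fkbp4, Ptges3 and Tomm34 also fell and were named after their values were seen. The chaperonin and prefoldin genes, which fold actin and tubulin, had 4 of 14 higher and 0 lower, where 16.5% of all tested genes rose and 17.9% fell. The log2 fold change was 0.22 for Cct2, 0.35 for Pfdn4 and 0.20 for Tcp1 (edgeR adjusted p = 0.00487, 0.00732 and 0.0236). The Tcp1 call was lost in 4 of 28 alternatives. Cct6a, named after its value was seen, was the remaining chaperonin gene that rose.

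**Figure D5:**
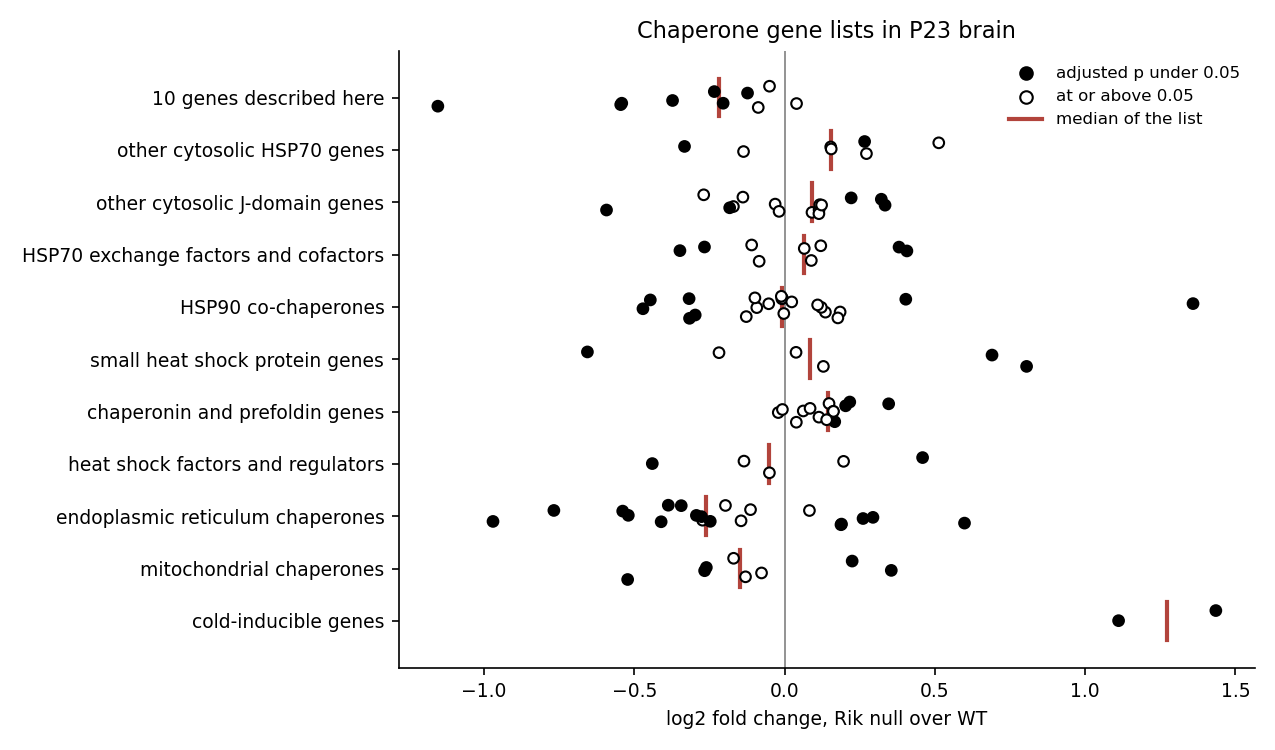
Log2 fold change of Rik null over WT for every tested gene of each chaperone list, with filled points for an adjusted p under 0.05, open points for others and a red bar at the median of the list. The median of the 10 genes described here is -0.22. Those of the other cytosolic lists run from -0.009 (HSP90 cochaperones) to 0.16 (other cytosolic HSP70 genes). The median is -0.05 for heat shock factors and regulators, -0.26 for endoplasmic reticulum chaperones and -0.15 for mitochondrial chaperones. Both cold-inducible genes lie beyond 1.

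Small heat shock proteins hold unfolded proteins without ATP. Of 9 genes 6 passed the filter, 2 rose and 1 fell, where 16.5% of all tested genes rose and 17.9% fell. Cryab, a small heat shock protein abundant in oligodendrocytes, fell by 0.66 on the log2 scale (68.1 ± 6.18 CPM in Rik null and 107 ± 8.11 CPM in WT, SD, n = 7 each, edgeR adjusted p = 2.12e-07). Hspb3 rose by 0.81 from a low level (1.62 ± 0.360 CPM in Rik null and 0.926 ± 0.139 CPM in WT, SD, n = 7 each, edgeR adjusted p = 0.0108). The Hspb3 call was lost in 4 of 28 alternatives. Hspb1 was at 0.69 (edgeR adjusted p = 0.0335), and this call was lost in 11 of 28 alternatives. Among them were those without Rik null replicate 1 (0.35, adjusted p = 0.1003), WT replicate 4 (0.64, adjusted p = 0.0675) or WT replicate 5 (0.62, adjusted p = 0.0718).

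The HSF genes and their regulators went in both directions. Of 5 tested genes Hsf2 rose by 0.46 on the log2 scale (edgeR adjusted p = 0.000114), and Hikeshi, which carries HSP70 into the nucleus during heat stress, fell by 0.44 (edgeR adjusted p = 0.00105). Hsf1 had a median of 20.2 CPM in Rik null brain and of 22.7 CPM in WT brain, and its log2 fold change of -0.14 missed the threshold (edgeR adjusted p = 0.225). Of 22 genes listed as core HSF1 targets, 11 fell and 2 rose, where 17.9% of all tested genes fell and 16.5% rose. This list holds all 10 chaperones described here, so it is not separate from them. Of the other 12 genes 4 fell (Serpinh1, Hspd1, Hspe1 and Fkbp4) and 2 rose (Bag3 and Hspb1), and Serpinh1, the collagen chaperone gene, fell by 0.82 (edgeR adjusted p = 1.76e-06).

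Cell type markers also differed between genotypes, and their part in the result was not tested. For comparison, 17.9% of all tested genes fell and 16.5% rose. The 8 oligodendrocyte markers all fell and summed to 12968 to 16122 CPM in Rik null libraries, against 18553 to 23014 CPM in WT libraries. Of 8 astrocyte markers 5 fell and 0 rose (5154 to 5920 CPM in Rik null, against 6293 to 7750 CPM in WT). Of 10 neuron markers 3 fell and 1 rose, and their sums overlapped (6191 to 6849 CPM in Rik null, against 6699 to 7208 CPM in WT). Of 6 microglia markers 5 fell and 0 rose (171 to 228 CPM in Rik null, against 251 to 345 CPM in WT). Endothelial markers rose for 2 of 6 genes and fell for 0, and their sums overlapped (223 to 260 CPM in Rik null, against 170 to 238 CPM in WT). Blood markers fell for 5 of 6 genes and rose for 0, and their sums overlapped slightly (222 to 387 CPM in Rik null, against 379 to 781 CPM in WT). Choroid plexus markers fell for 4 of 6 genes and rose for 0, and their sums overlapped (577 to 756 CPM in Rik null, against 542 to 851 CPM in WT). Of 5 pituitary markers 2 passed the filter, and both were called lower. Their sum was 0.541 to 5.16 CPM in Rik null, against 2.21 to 380 CPM in WT, where the highest value was that of WT replicate 4. The median of the sum was 2.99 CPM in Rik null and 5.73 CPM in WT. The medians in the same order were 2.21 and 2.45 CPM for Pomc and 0.995 and 3.89 CPM for Gh.

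The cold-inducible RNA-binding protein genes moved the other way. Cirbp and Rbm3, whose transcripts increase when cells are cooled, summed to 211 to 317 CPM in Rik null libraries, against 82.8 to 121 CPM in WT libraries. Every Rik null library lay above every WT library. Cirbp rose by 1.11 and Rbm3 by 1.43 on the log2 scale (edgeR adjusted p = 2.87e-09 and 7.14e-09). Of 12 immediate early genes 4 rose (Dusp1, Fosb, Junb and Nr4a1) and 1 fell (Jun), where 16.5% of all tested genes rose and 17.9% fell. The log2 fold change was 0.95 for Dusp1, 0.74 for Junb and 0.76 for Nr4a1 (edgeR adjusted p = 3.51e-06, 0.000181 and 0.000151). Fosb and Jun were named after their values were seen. Body temperature was not among the labels, and the part of these genes in the chaperone differences was not tested.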

How the data were processed

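Brain RNA of 7 Rik null and 7 WT mice was extracted, and a company made the libraries, sequenced them and ran its standard analysis, as the labels say. Which aligner, counter and annotation it used, and whether strand was used in counting, is not given in the sources used here. The submitters' processing notes name GRCm38, but only 1485 of 52073 gene identifiers shared with GENCODE M21 have the same chromosome and start in the deposited table, so positions were taken from GENCODE M21 (GRCm38) by identifier. The authors deposited raw read counts for 56748 genes (36521 with a count), FPKM values, which were used for levels between genes only, and signal columns with a mean of normalized counts per genotype, which were not used. The log2 fold changes and p-values of the authors' own comparison were not used either. Total counts were 14.7 to 17.9 M per library. Libraries of a genotype differed beyond sampling noise (smallest chi-square per degree of freedom 4.47). Each library is labelled as a separate animal. The group sizes are those of the labels and differ from those in the study's text for this age.

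Counts were tested with edgeR 4.0.16 (R 4.3.3) by the two-sided quasi-likelihood F test on genotype alone, after TMM (trimmed mean of M values) scaling and filterByExpr. P-values were adjusted over 16882 genes (Benjamini-Hochberg, threshold 0.05). CPM were scaled by TMM. A log2 fold change is Rik null over WT. An SE is the size of the log2 fold change over the square root of edgeR's F. The 95% intervals used this SE and the residual degrees of freedom, which are fewer than those of edgeR's test. An interval can therefore hold 0 where the unadjusted p is under 0.05. The script was tested on simulated data. Promoter windows and motif matches used RefSeq sequences of GRCm38.p6. Correlations used log2 CPM (prior count 2) of genes with a mean of at least 10 CPM.

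The 10 genes and all lists were chosen with earlier results of these data known. The genes named were the 10, Rik, Hspa1a, Hspa1b and Hsf1, up to 3 genes of smallest p per list, and the 8 and 5 genes most like the average of the 10 and Hsph1. Some genes within these counts are not reported here by name. Alternatives were a DESeq2 1.42.0 Wald test, RLE factors, library size alone, scaling without mitochondrial genes, no filter beyond 1 count, at least 1 CPM in 7 libraries, edgeR's robust option, sex as a covariate, a replicate block, each sex alone, and leaving out libraries. Settings without Rik null replicate 4 for its sex label were added after seeing the data.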

Additional observations from a re-analysis of the deposited data

Results flagged for a closer look

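Among 90 groups of 7 libraries (45 named genes in each genotype), 10 had a library far from the others, where chance flags about 1 in 20 groups, and none of these concerned the 10 chaperones. Rik null replicate 1 gave 7 of the 10 and was low for Hspa12a, with 157 CPM where the other Rik null libraries had 198 to 218 CPM, and for Trap1, with 38.3 CPM against 49.5 to 54.6 CPM. It was high for Hspa14 (40.2 CPM, others 27.8 to 33.0), Dnajb4 (99.3 CPM, others 73.6 to 82.4), Bag1 (107 CPM, others 81.6 to 91.9), Hspb1 (22.8 CPM, others 5.71 to 9.60) and Cct2 (200 CPM, others 169 to 181).

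In WT brain, replicate 4 was high for Trap1 (84.3 CPM, others 68.1 to 73.6), replicate 1 was high for Grpel2 (27.0 CPM, others 22.6 to 24.0) and replicate 3 was high for Nr4a1 (31.1 CPM, others 17.9 to 22.3).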

How the results depend on the processing

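Hsph1, Hspa4, Stip1 and Chordc1 kept their calls in all 28 alternatives. The number of the 10 chaperones that fell was 7, with 6 to 7 when 1 library was left out, 5 in females or males alone and, in an alternative chosen after seeing the data, 4 in males without Rik null replicate 4, while 0 rose in each. Over all tested genes, 1282 rose and 1592 fell in females alone, 1241 and 1496 in males alone, and 598 and 816 in males without Rik null replicate 4. Of the other cytosolic chaperone genes 27 rose with library size alone, 2 in females, 6 in males without Rik null replicate 4 and 9 with sex as a covariate without it, and 6 fell in females, 6 in males and 5 in males without that replicate. These subsets hold fewer libraries. Dnaja1 turned to 0.0204 with library size alone, 0.0332 in males and 0.0575 in males without Rik null replicate 4, and Dnajb1 to -0.0198 in females and -0.0102 without Rik null replicate 1 and WT replicate 4. The cause was not tested.

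The replicate numbers are shared by both genotypes, and whether they pair the libraries was not settled by these values. The correlation of same-numbered deviations ran from -0.06 to 0.14 and was over 0.1 for 1 of 7 numbers. Of 7 libraries 3 matched their own number best, more than chance gives on average. With the replicate block 7 of the 10 chaperones fell and 0 rose, and 2898 genes rose and 3068 fell.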

Other observations

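Chaperones of other compartments were not uniform. Of 20 endoplasmic reticulum chaperone genes 10 fell and 5 rose, where 17.9% of all tested genes fell and 16.5% rose. Calr, the calcium-binding lectin chaperone gene, fell by 0.77 on the log2 scale (176 ± 23.1 CPM in Rik null and 299 ± 24.3 CPM in WT, SD, n = 7 each, edgeR adjusted p = 2.35e-07), Hsp90b1, the HSP90 of this compartment, by 0.41 (edgeR adjusted p = 7.36e-06) and Pdia6, a disulfide isomerase gene, by 0.52 (edgeR adjusted p = 1.35e-05). The 5 that rose were Dnajb9, Dnajc10, Dnajc3, Herpud1 and Sec63, named after their values were seen. The median log2 fold change of the list was -0.26, against -0.0005 for all tested genes.

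Of 8 mitochondrial chaperone genes 3 fell and 2 rose, where 17.9% of all tested genes fell and 16.5% rose. Trap1, the mitochondrial HSP90, fell by 0.52 on the log2 scale and Hspd1, the mitochondrial chaperonin, by 0.27 (edgeR adjusted p = 1.96e-05 and 0.000373), and Grpel2, an exchange factor of the mitochondrial HSP70, rose by 0.35 (edgeR adjusted p = 0.00103). The other 2 genes past the threshold, named after their values were seen, were Hspe1, which fell, and Hspa9, which rose.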
